A study of Mus musculus with 6 samples.

Results

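The genes of the aryl hydrocarbon receptor (AhR) and NRF2 detoxification systems were examined in Cre-induced hair bulge (HB) keratinocytes with and without integrin α3 (*Itga3*). The 44 genes were taken from the count table by symbol: the AhR system, the enzymes that metabolise carcinogens, and the antioxidant genes that NRF2 is known for. All 44 were among the 22295 genes of the table, and all 44 had a count in at least 1 library and were tested.

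AhR is a receptor in the cytoplasm that binds polycyclic aromatic hydrocarbons, moves to the nucleus and, with its partner ARNT, switches on enzymes such as CYP1A1 and CYP1B1, which oxidise these compounds. In skin, CYP1B1 is known for turning the carcinogen DMBA into the reactive form that binds DNA. NRF2, encoded by *Nfe2l2*, is held down by KEAP1 until electrophiles or oxidants release it, and then drives the genes that conjugate reactive products, make glutathione, reduce thioredoxin and supply NADPH.

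RNA was measured in 6 libraries of FACS-sorted GFP-positive keratinocytes from mouse epidermis, 3 from K19 *Itga3* WT and 3 from K19 *Itga3* KO mice bred on FVB (FVB/N in the study's methods). WT mice carried K19 (Cre-ERT) and the mTmG reporter, and KO mice carried both and *Itga3* fl/fl. Both groups received, per the labels, tamoxifen at 10 mg/ml over 4 days from the age of 6 weeks, 1 dose of 30 µg DMBA in 200 µl acetone at 7 weeks, and then repeated TPA at 12.34 µg; the study's methods give another tamoxifen schedule. No library of untreated skin was analysed here, so the values describe carcinogen-treated cells of both genotypes. Cre was driven by the K19 promoter, which targets the HB, and the study describes recombination as inefficient, so the libraries hold only the cells that switched to GFP and their progeny.

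Depth was 20578309 to 23670507 counts per library, and the 44 genes took 0.395 to 0.429% of it. Levels are in CPM, counts relative to the library's total after scaling by TMM factors, and 3 counts, used as the floor, were 0.128 to 0.145 CPM. The libraries of each genotype are called a, b and c, which are names without a rank; values are given as a, b, c. *Itga3* itself was at 371, 252 and 271 CPM in WT and 131, 124 and 134 CPM in KO, a log2 fold change (KO minus WT) of -1.20 ± 0.13 (SE, n = 3 per genotype, edgeR adjusted p = 0.00283). The HB and basal keratinocyte markers were present in every library, led by *Krt5*, with summed levels of 31947 to 48876 CPM in WT and 37192 to 43191 CPM in KO. Of these 8 genes, *Cd34* was called lower in KO. Of the other marker lists, 2 of 5 upper follicle genes (*Krt17*, *Plet1*) and 3 of 7 inner root sheath and hair shaft genes (*Krt25*, *Krt28*, *Krt35*) were called higher in KO. The edgeR adjusted p values of these marker calls, *Cd34* included, were 0.0256 to 0.0462, near the threshold of 0.05. The marker calls were not followed under other methods or filters. The upper follicle sum was 2608 to 3212 CPM in WT and 3607 to 5599 CPM in KO, and the inner root sheath and hair shaft sum was 88.1 to 101 CPM and 90.3 to 115 CPM. Most of the latter sum was *Gata3*, with a mean of 79.5 CPM in WT and 77.6 CPM in KO. The means of *Krt25*, *Krt28* and *Krt35* were 0.395, 1.69 and 0.316 CPM in WT and 4.36, 6.00 and 2.81 CPM in KO. Fibroblast markers summed to 116 to 178 CPM in WT and 48.1 to 80.3 CPM in KO with 0 of 6 genes called. Most of that sum was *Col1a1* and *Col1a2*, which had lower means in KO, as did *Pdgfra*. *Col3a1*, *Dcn* and *Lum*, all at low levels, had higher means in KO, and the median log2 difference of the list was 0.33. Sebocyte markers summed to 136 to 444 CPM in WT and 217 to 354 CPM in KO with 0 of 9 called. None of 6 suprabasal, 8 immune cell, 4 endothelial and 6 melanocyte markers was called, and the last 3 lists summed to at most 12.1, 8.67 and 14.4 CPM. The part of these other cells in the results that follow was not tested. In libraries of many cells, fewer cells of a type and less RNA per cell cannot be told apart.

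Both systems act on promoters through short DNA motifs, and stretches that hold such motifs are shown for some of the 44 genes. RefSeq promoter windows (mouse build GRCm38.p6, 250 bases before to 50 after a start) were at hand for 36 of the 44 genes; *Gsta4*, *Prdx6*, *Gclc*, *Ahr*, *Aldh3a1*, *Abcc1*, *Gsr* and *Hmox1* had no entry. The core of the AhR element, GCGTG on either strand, was found in the windows of 24 of these 36 genes, and in 29 of their 45 windows (64.4%) against 32.4% of all 32851 windows. The core of the antioxidant response element, TGACNNNGC on either strand, was found for 13 genes and in 13 windows (28.9%) against 12.4% of all. These windows were richer in G and C than most, with a median GC content of 59.3% against 52.7% over all windows, and this was not matched, so the shares are a description only. Matches of the antioxidant core in *Me1* and *Prdx1* overlapped the AP-1 motif TGACTCA, and in *Sod1*, *Gstm5* and *Ugdh* the cores overlapped each other. The stretches below are 60 bases each, written 5′ to 3′ on the strand of the gene, with the motif in capitals (CACGC and GCNNNGTCA are the same cores read on the other strand). They come from *Cyp1a1*, the textbook AhR target, and from the genes whose KO and WT libraries did not overlap, where the stretch held a core before the RefSeq start and lay in no annotated exon of the same strand.
Cyp1a1 (chr9:57697531-57697590, + strand, AhR core): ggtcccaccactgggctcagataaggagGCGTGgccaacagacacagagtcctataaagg
Cyp1b1 (chr17:79715106-79715165, - strand, AhR core): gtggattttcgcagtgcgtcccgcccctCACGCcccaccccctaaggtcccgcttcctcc
Tiparp (chr3:65528249-65528308, + strand, AhR core): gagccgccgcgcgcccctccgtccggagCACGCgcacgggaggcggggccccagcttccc
Srxn1 (chr2:152105402-152105461, + strand, AhR core): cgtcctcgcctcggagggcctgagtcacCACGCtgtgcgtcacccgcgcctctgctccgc
Taldo1 (chr7:141392052-141392111, + strand, AhR core): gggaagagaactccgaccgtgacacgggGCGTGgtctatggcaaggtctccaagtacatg
Txnrd1 (chr10:82859088-82859147, + strand, antioxidant core): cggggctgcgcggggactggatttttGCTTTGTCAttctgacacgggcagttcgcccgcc
Sod1 (chr16:90220680-90220739, + strand, both cores overlapping): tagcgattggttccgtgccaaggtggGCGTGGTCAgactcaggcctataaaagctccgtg
The cores began 54 bases before the start in *Cyp1a1*, 76 in *Cyp1b1*, 170 in *Tiparp*, 94 in *Srxn1*, 80 in *Taldo1*, 92 in *Txnrd1* and 56 in *Sod1*. The *Tiparp* stretch also overlaps an exon of *4931440P22Rik*, annotated on the opposite strand. A match shows only that these letters are present, not that AhR or NRF2 was bound there.

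Across the 44 genes, loss of *Itga3* came with small differences in both directions. None was called at an adjusted p below 0.05 by edgeR's quasi-likelihood test, against 146 of 21681 genes tested (0.673%). The smallest adjusted p was 0.0660, for *Tiparp*. limma-voom also called 0 of the 44, and DESeq2 called 2, *Tiparp* (adjusted p = 0.00444) and *Slc7a11* (adjusted p = 0.0117). At an unadjusted p below 0.05 there were 13 genes, 8 higher and 5 lower in KO. Among the 13054 genes that reached 10 counts in each of the 6 libraries, a group that holds 42 of the 44 and all of these 13, the same rule was met by 8.15% in the higher and 8.31% in the lower direction. In total that is 31.0% of the 42 against 16.5% of the 13054, and this difference in shares was not tested. Without KO a there were 7 such genes (16.7% of the 42) against 9.91% of the 13054 under the same omission.

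The KO and WT libraries did not overlap for 10 of the 44 genes. All KO libraries lay above all WT libraries for *Tiparp*, *Slc7a11*, *Txnrd1*, *Srxn1*, *Pgd*, *Taldo1* and *Me1*, and below them for *Cyp1b1*, *Mgst1* and *Sod1*. Among the 13054 genes, 10.9% did not overlap with KO higher and 10.9% with KO lower. The total of 23.8% of the 42 genes is near that background of 21.8%, so the number without overlap is no result about these genes. The median log2 fold change was 0.038 over the 44 genes and 0.00 over all genes tested, with 27 genes above 0 and 17 below. The estimate was under 1.5-fold for 40 of the 44, and the 95% interval lay within 2-fold in either direction for 37.

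**Figure D1:**
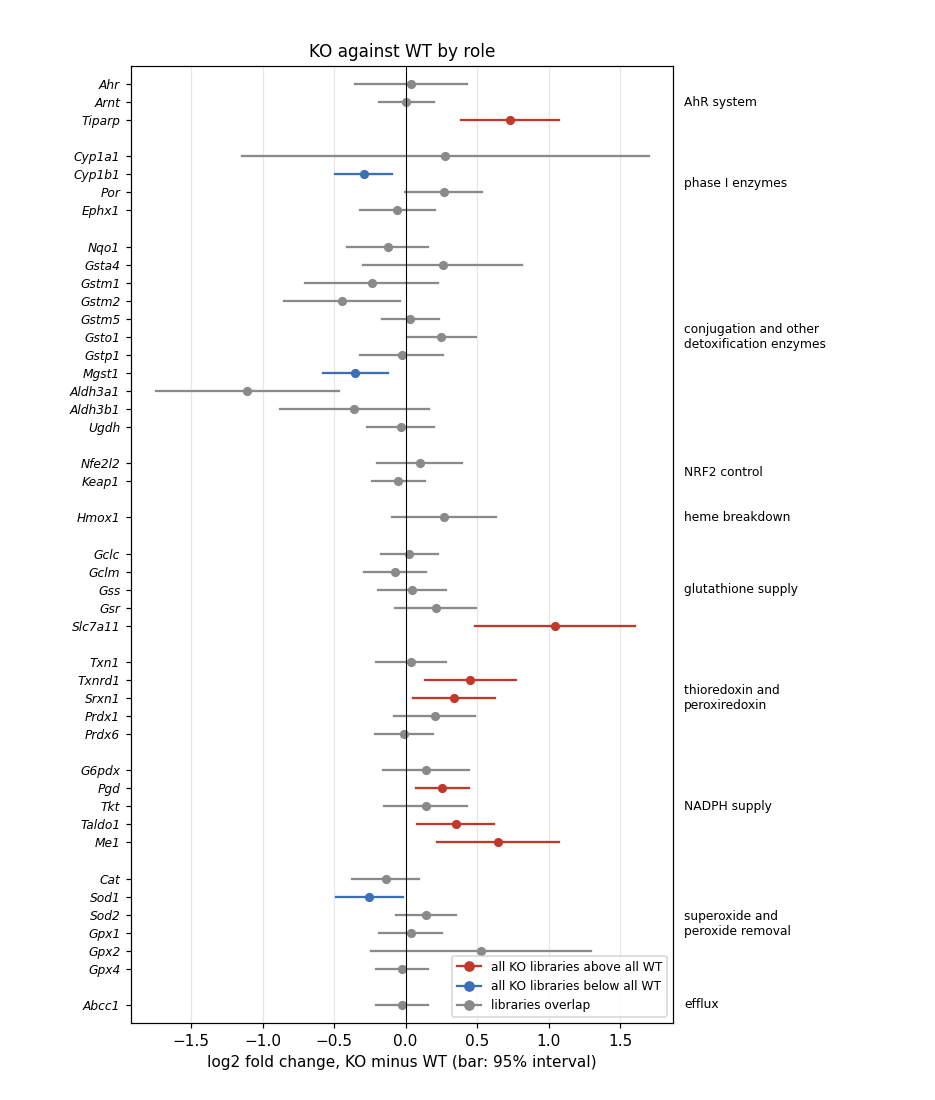
Log2 fold change (KO minus WT, edgeR) of 43 genes by role, with the 95% interval as a bar (n = 3 libraries per genotype); *Ahrr*, with 1 to 3 counts per library, is left out. Red marks the 7 genes whose KO libraries all lay above the WT libraries, blue the 3 whose KO libraries all lay below, and no gene passed an adjusted p of 0.05.

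The 44 genes spanned a wide range of levels in the sorted cells. Per kb of exon, 15 were above the 90th percentile of all genes and 40 above the 50th. The most abundant was *Txn1*, thioredoxin, at a mean of 295 CPM per kb (percentile 99.5), followed by *Gpx1*, which reduces peroxides with glutathione, at 198 CPM per kb, *Prdx1* at 160.1 and *Ephx1* at 132. At the other end were *Ahrr*, the AhR repressor, with 1 to 3 counts per library, *Slc7a11* at 0.479 CPM per kb and *Cyp1a1* at 0.620 (percentile 43). The textbook AhR target *Cyp1a1* was thus less abundant per length than *Cyp1b1*, at 13.2 CPM per kb, in all 6 libraries.

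**Figure D2:**
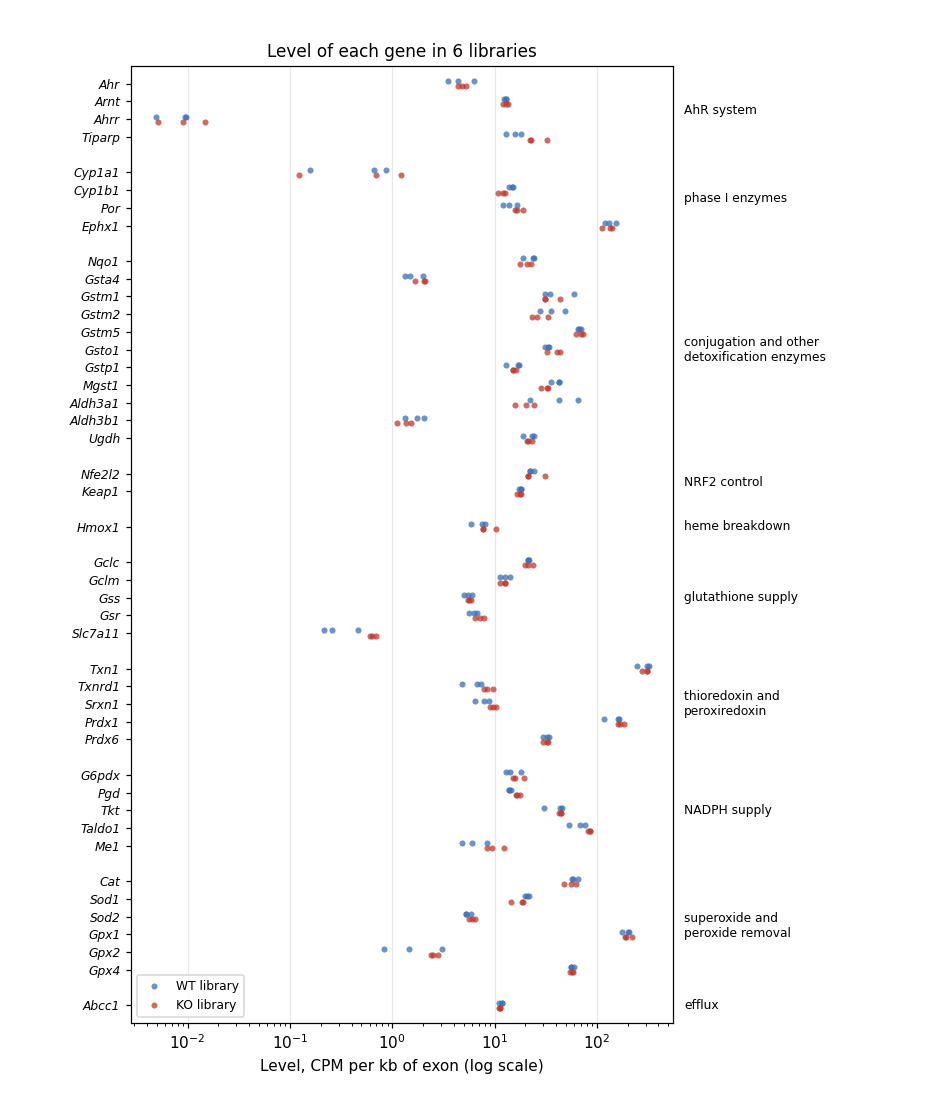
Level of each of the 44 genes in CPM per kb of exon, on a log axis, with 1 point per library (blue WT, red KO). *Txn1*, *Gpx1*, *Prdx1* and *Ephx1* stand at the top of the range, and *Ahrr*, with 1 to 3 counts per library, stands alone at the bottom.

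In the AhR system, *Tiparp* stood apart from the receptor and its partner. *Tiparp* encodes an ADP-ribosyltransferase that AhR induces and that in turn limits AhR. The gene (ENSMUSG00000034640, chr3:65528410-65555145, GRCm38) was at 78.8, 56 and 69.6 CPM in WT and 142, 99.1 and 97.7 CPM in KO. Every KO library was above every WT library, and KO a was the highest. The difference was 0.73 ± 0.16 on the log2 scale (SE, n = 3 per genotype), or 1.66-fold, with an unadjusted p of 0.000624 and an edgeR adjusted p of 0.0660. Its adjusted p was 0.159 by limma-voom. With 1 library left out, the difference was 0.53 (adjusted p = 0.394) without KO a and 0.85 (adjusted p = 0.0232, which passed) without WT a, and the adjusted p was highest, at 0.410, without WT c. Of its stretches of 65 bases, the read length, 3.70% also occur in transcripts of another gene.

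*Ahr*, the receptor, was at 21.6, 38.6 and 27.1 CPM in WT and 32.4, 29.9 and 27.2 CPM in KO. Both its lowest and its highest value were WT libraries, a and b, so the KO values lay inside the WT range. Its log2 difference was 0.037 ± 0.18 (SE, n = 3, edgeR adjusted p = 0.958) with a 95% interval of -0.36 to 0.43. *Arnt*, the partner, ranged over 99.4 to 105 CPM in WT and 95.8 to 109 CPM in KO, with a log2 difference of 0.0050 ± 0.087 (SE) that changes sign with the scaling method. *Ahrr* was at or below the floor of 3 counts in all 6 libraries, with 0.0459, 0.0916 and 0.0882 CPM in WT and 0.0850, 0.141 and 0.0484 CPM in KO, so no fold is given.

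Among the phase I enzymes, which make the first chemical change, *Cyp1b1* lay lower in each KO library and *Cyp1a1* varied too widely between libraries for a difference of moderate size to show. *Cyp1b1* (ENSMUSG00000024087, chr17:79706953-79715041) was at 87.9, 81 and 85.7 CPM in WT and 63.3, 74 and 70.4 CPM in KO. The lowest WT library was above the highest KO library, and the spread within each genotype was small (CV 4.15% in WT and 7.81% in KO). The log2 difference was -0.29 ± 0.091 (SE, n = 3), 0.815-fold, with an unadjusted p of 0.00746 and an edgeR adjusted p of 0.201.

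*Cyp1a1* (ENSMUSG00000032315, chr9:57697613-57703822) was at 1.84, 2.43 and 0.441 CPM in WT and 1.96, 3.38 and 0.339 CPM in KO, from 7 to 72 counts. WT c and KO c were both several-fold below the other libraries of their genotype, so the genotypes overlapped throughout. The log2 difference of 0.28 ± 0.65 (SE, adjusted p = 0.886) has a 95% interval of -1.15 to 1.70, which holds a 2-fold difference in either direction, so one was not detectable with this spread between libraries (CV 65.1% in WT and 80.4% in KO). *Por*, the reductase that passes electrons to cytochrome P450 enzymes, ranged over 48.3 to 67 CPM in WT and 63.1 to 75.5 CPM in KO (log2 difference 0.27 ± 0.12, SE, adjusted p = 0.439). *Ephx1*, the microsomal epoxide hydrolase that opens epoxides made by those enzymes, was the most abundant phase I gene per length and was at 299, 255 and 233 CPM in WT and 219.8, 277 and 259.6 CPM in KO. Its groups overlapped, with a log2 difference of -0.057 ± 0.12 (SE, adjusted p = 0.869).

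Of the 11 conjugation and other detoxification enzymes, 8 had a log2 difference below 0, and 3 of these had an unadjusted p below 0.05, a threshold that 8.31% of well-counted genes met in the lower direction. *Aldh3a1*, an aldehyde dehydrogenase that AhR induces in many tissues, had the greatest edgeR difference of the 44 genes, while by limma-voom *Slc7a11* had a greater one, 1.12 on the log2 scale. The gene (ENSMUSG00000019102, chr11:61207537-61218421) was at 43.5, 127 and 83.7 CPM in WT and 30.5, 39.8 and 47.5 CPM in KO. WT a lay below KO c, so the groups overlapped, and WT b was the highest library. The log2 difference was -1.11 ± 0.29 (SE, n = 3), 0.464-fold, with an unadjusted p of 0.00282 and an edgeR adjusted p of 0.127. With 1 library left out, it was -1.42 without WT a with an adjusted p of 0.00477, which passed, and the other 5 omissions gave adjusted p values of 0.232 to 0.632. Its spread between libraries, taken as the CV averaged over WT and KO, was wider than in 95.7% of well-counted genes. The CV was 49.1% in WT and 21.8% in KO, or 35.4% on average.

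*Mgst1*, a microsomal glutathione transferase, was at 70.9, 85.6 and 86.4 CPM in WT and 66, 66.5 and 57.8 CPM in KO. All KO libraries lay below the lowest WT library, WT a, by a small margin. The log2 difference was -0.35 ± 0.10 (SE, n = 3), 0.784-fold, with an unadjusted p of 0.00564 and an edgeR adjusted p of 0.176. *Gstm2*, a cytosolic glutathione transferase, was at 47.2, 82.3 and 59.5 CPM in WT and 39.2, 43.5 and 56.2 CPM in KO. WT b was the highest library and WT a lay among the KO values (log2 difference -0.44 ± 0.19, SE, unadjusted p = 0.0349, adjusted p = 0.384). Its neighbour in the family, *Gstm1*, also had its highest value in WT b and ranged over 45.4 to 87.1 CPM in WT and 46.1 to 63.8 CPM in KO (log2 difference -0.24 ± 0.21, SE). Of the 65-base stretches of *Gstm1*, 14.1% occur in another gene's transcripts, so its level is uncertain.

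WT b also held the highest *Ahr* value and the highest sebocyte marker sum, 444 CPM against 136 and 195 CPM in WT a and c. In KO a, b and c that sum was 354, 236 and 217 CPM, and KO a had the lowest *Aldh3a1* and *Gstm2* of all libraries. WT b also had the highest suprabasal marker sum, 1964 CPM, and the lowest HB and basal marker sum, 31947 CPM. The part of WT b in the *Aldh3a1*, *Gstm1* and *Gstm2* values was not tested. Without WT b the log2 difference of *Aldh3a1* was -0.70 (edgeR adjusted p = 0.316), against -1.11 with all libraries. That of *Gstm2* was -0.20 (edgeR adjusted p = 0.772), against -0.44.

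*Gsto1*, an omega class glutathione transferase, was the only conjugation enzyme with an unadjusted p below 0.05 and a higher mean in KO. It was at 69.3, 62.6 and 66.7 CPM in WT and 87.6, 82.4 and 66.3 CPM in KO. KO c lay within the WT values while KO a and b were above them (log2 difference 0.25 ± 0.11, SE, unadjusted p = 0.0423, adjusted p = 0.411). *Nqo1*, a quinone reductase that both AhR and NRF2 are known to induce, was at 29.7, 36.6 and 37.7 CPM in WT and 35.5, 32.1 and 27.8 CPM in KO. The genotypes overlapped, with a log2 difference of -0.12 ± 0.13 (SE, adjusted p = 0.696) and a 95% interval of -0.41 to 0.16. *Gstm5*, the most abundant of these enzymes per length (67.8 CPM per kb), was at 89.2, 83 and 84.9 CPM in WT and 88.8, 94 and 80.1 CPM in KO, and again the groups overlapped (log2 difference 0.033 ± 0.091, SE, adjusted p = 0.908). The other 4 enzymes did not separate by genotype. *Gsta4* ranged over 1.69 to 2.56 CPM in WT and 2.13 to 2.63 CPM in KO (0.26 ± 0.25 on the log2 scale), *Gstp1* over 20.0 to 27.1 CPM in WT and 23.3 to 25.2 CPM in KO (-0.026 ± 0.13), *Aldh3b1* over 2.75 to 4.14 CPM in WT and 2.27 to 3.10 CPM in KO (-0.36 ± 0.24) and *Ugdh*, which makes the sugar donor for glucuronidation, over 129 to 166 CPM in WT and 139.5 to 157 CPM in KO (-0.035 ± 0.11). *Gstp1* shares 30.9% of its 65-base stretches with other genes, mainly *Gstp2*, and is uncertain.

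The controllers of the antioxidant response differed little between genotypes. *Nfe2l2* (ENSMUSG00000015839, chr2:75675513-75704641), which encodes NRF2, was at 83.7, 83.9 and 91.9 CPM in WT and 117, 80.2 and 80.5 CPM in KO. KO a was the highest of the 6 libraries, and KO b and c lay below all WT values (log2 difference 0.10 ± 0.14, SE, adjusted p = 0.792). *Keap1*, which encodes the protein that holds NRF2 down, was at 85.6, 85.6 and 81.5 CPM in WT and 77, 82.5 and 84.3 CPM in KO. It was among the steadiest genes, with a spread between libraries wider than in only 6.04% of well-counted genes, and its 95% interval was -0.24 to 0.13 on the log2 scale. NRF2 is known to be regulated mainly at the level of the protein, which RNA levels do not show. *Hmox1*, heme oxygenase and a widely used readout of oxidant stress, was at 14, 13.2 and 10.4 CPM in WT and 18.2, 13.6 and 13.4 CPM in KO. Again KO a was highest, while KO b and c lay within the WT range (log2 difference 0.27 ± 0.17, SE, adjusted p = 0.599).

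Of the genes that supply glutathione, the cystine importer lay higher in each KO library and the enzymes of synthesis and recycling overlapped. *Slc7a11* (ENSMUSG00000027737, chr3:50364936-50443613) encodes the transporter that brings in cystine, the limiting building block. It was at 2.98, 3.57 and 6.48 CPM in WT and 9.73, 8.39 and 8.85 CPM in KO, from 65 to 229 counts. The KO libraries were tightly grouped above all WT libraries, and WT c was nearer to KO than WT a and b were (CV 43.1% in WT and 7.57% in KO). The log2 difference was 1.05 ± 0.26 (SE, n = 3), 2.07-fold, with an unadjusted p of 0.00161 and an edgeR adjusted p of 0.0978. Its adjusted p was 0.156 by limma-voom and 0.0829 to 0.531 with 1 library left out.

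*Gclc*, the catalytic subunit of the enzyme that starts glutathione synthesis, was at 81.6, 80.0 and 79.5 CPM in WT and 74.7, 90.1 and 80.9 CPM in KO. The WT libraries lay inside the KO range (log2 difference 0.027 ± 0.093, SE, adjusted p = 0.930). Its modifier subunit *Gclm* ranged over 71.9 to 89.7 CPM in WT and 71.6 to 79.3 CPM in KO (-0.074 ± 0.10 on the log2 scale, SE), glutathione synthetase *Gss* over 29.8 to 35.8 CPM in WT and 32.6 to 35.1 CPM in KO (0.044 ± 0.11) and glutathione reductase *Gsr* over 15.6 to 18.6 CPM in WT and 17.9 to 22 CPM in KO (0.21 ± 0.13). These 3 overlapped between genotypes, and their adjusted p values were 0.780, 0.894 and 0.593.

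In the thioredoxin and peroxiredoxin group, both enzymes that restore oxidised proteins lay higher in each KO library, and thioredoxin itself overlapped. That is 2 of 5 genes, where 10.9% of well-counted genes did not overlap with KO higher, and this difference in shares was not tested. *Txnrd1*, thioredoxin reductase, was at 52.1, 34.4 and 47.7 CPM in WT and 68.5, 55.4 and 59.8 CPM in KO. The margin between WT a and KO b was narrow, and WT b was the lowest (log2 difference 0.45 ± 0.14, SE, n = 3, unadjusted p = 0.00903, adjusted p = 0.213). *Srxn1*, sulfiredoxin, which rescues over-oxidised peroxiredoxins, was at 22.1, 18.2 and 24.7 CPM in WT and 29.1, 27.3 and 25.6 CPM in KO. Here too the groups came close without overlap, at WT c and KO c (log2 difference 0.34 ± 0.13, SE, unadjusted p = 0.0259, adjusted p = 0.340). *Txn1* was at 336, 258 and 323 CPM in WT and 324, 327 and 292 CPM in KO. The KO values lay inside the WT range (log2 difference 0.039 ± 0.11, SE, adjusted p = 0.911). *Prdx1* ranged over 360.0 to 507 CPM in WT and 489.6 to 562 CPM in KO (0.20 ± 0.13 on the log2 scale, SE, adjusted p = 0.617) and *Prdx6* over 142 to 162 CPM in WT and 143 to 159 CPM in KO (-0.013 ± 0.092, adjusted p = 0.980).

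The 5 genes of NADPH supply had log2 differences of 0.14 to 0.65, above 0 under each scaling tried. With 1 library left out, the difference was 0.22 to 0.30 for *Pgd*, 0.21 to 0.48 for *Taldo1* and 0.47 to 0.89 for *Me1*. These omissions were not followed for *G6pdx* and *Tkt*, whose differences leaned on single libraries. For *Tkt*, WT a and c were at 333 and 323 CPM and WT b at 226 CPM, against a KO mean of 324 CPM. For *G6pdx*, KO b and c were at 46.5 and 48.6 CPM and KO a at 59.6 CPM, against a WT mean of 46.6 CPM. The libraries did not overlap for *Pgd*, *Taldo1* and *Me1* (10.9% of well-counted genes did not overlap with KO higher), while those of *G6pdx* and *Tkt* did. *G6pdx*, *Pgd* and *Me1* encode enzymes that make NADPH, the reductant that glutathione reductase and thioredoxin reductase use, and *Taldo1* and *Tkt* encode enzymes of the non-oxidative branch of the pentose phosphate pathway, which recycles its sugars. *Me1*, the cytosolic malic enzyme (ENSMUSG00000032418, chr9:86581371-86695953), was at 18.6, 32.4 and 23.1 CPM in WT and 47.4, 32.5 and 36.1 CPM in KO. WT b and KO b were nearly equal, and the groups overlapped when CPM were scaled by library size only or by upper-quartile factors. The log2 difference was 0.65 ± 0.19 (SE, n = 3), 1.57-fold, with an unadjusted p of 0.00630 and an edgeR adjusted p of 0.183. Of the 65-base stretches of *Me1*, 22.8% occur in other genes, mostly the processed pseudogene *Gm7049*, so its level is uncertain.

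*Pgd*, which makes NADPH in the pentose phosphate pathway, was at 88.5, 89.3 and 94 CPM in WT and 114, 104 and 107 CPM in KO. Every KO library lay above every WT library, and the spread within each genotype was small (CV 3.28% in WT and 4.84% in KO). The log2 difference was 0.26 ± 0.085 (SE, n = 3), with an unadjusted p of 0.0113 and an edgeR adjusted p of 0.238. *Taldo1*, transaldolase of the same pathway, was at 168, 115 and 149 CPM in WT and 179, 184 and 188 CPM in KO. Its KO libraries lay close together, while WT b was far below the other WT libraries (log2 difference 0.35 ± 0.12, SE, unadjusted p = 0.0162, adjusted p = 0.281). *G6pdx*, the entry enzyme of the pathway, ranged over 40.0 to 55.8 CPM in WT and 46.5 to 59.6 CPM in KO (0.14 ± 0.14 on the log2 scale, SE, adjusted p = 0.681). Only KO a was above its WT range. Of the 65-base stretches of *G6pdx*, 13% occur in other genes, mainly *Ikbkg*, so its level is uncertain. *Tkt*, transketolase, was at 333, 226 and 323 CPM in WT and 315, 331 and 325 CPM in KO (0.14 ± 0.13, adjusted p = 0.681). WT a was above all KO libraries and WT b far below them. Both *G6pdx* and *Tkt* overlapped between genotypes.

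**Figure D3:**
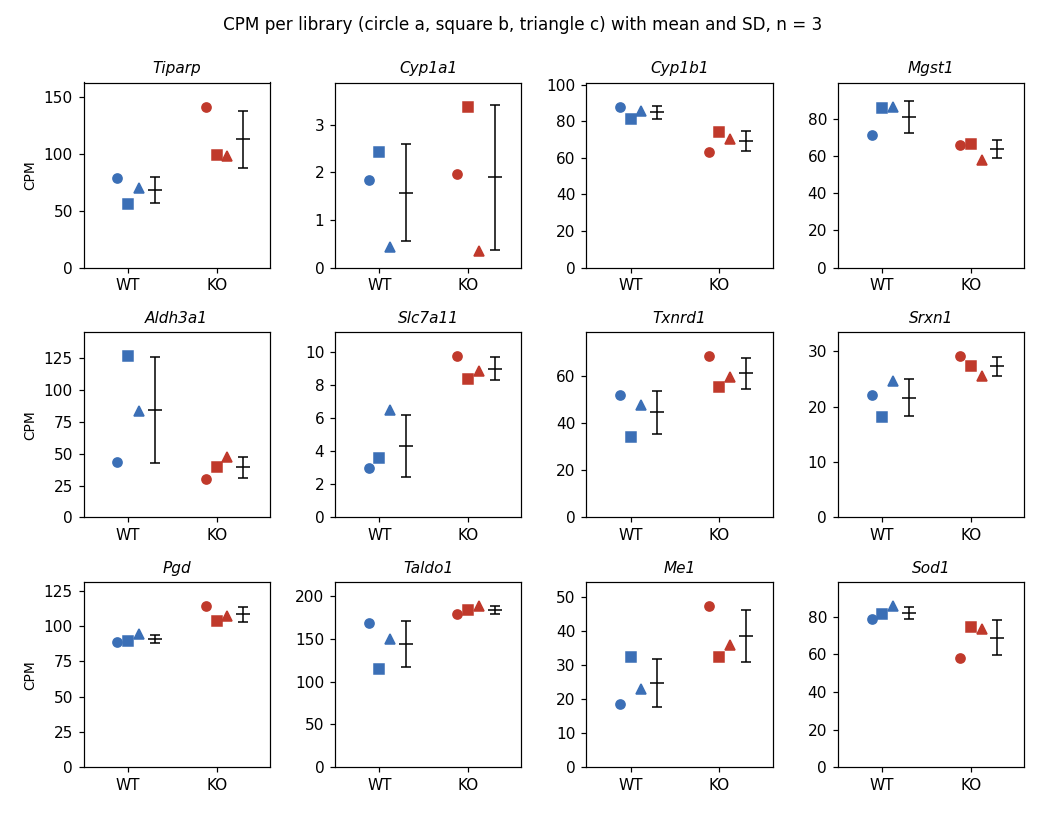
CPM in each library for 12 genes, with the mean and SD of each genotype (n = 3) and axes that start at 0; marker shapes name the library. The KO libraries lie above the WT libraries for *Tiparp*, *Slc7a11*, *Txnrd1*, *Srxn1*, *Pgd*, *Taldo1* and *Me1*, below them for *Cyp1b1*, *Mgst1* and *Sod1*, and overlap with them for *Cyp1a1* and *Aldh3a1*.

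Among the enzymes that remove superoxide and peroxide, the KO and WT libraries did not overlap for 1 of 6, *Sod1*, a share of 16.7% against 21.8% of well-counted genes in both directions together. *Sod1*, the cytosolic superoxide dismutase, was at 78.8, 81.6 and 85.4 CPM in WT and 58, 74.6 and 73.5 CPM in KO. KO a was far below the other libraries, and KO b and c were just below the lowest WT value (log2 difference -0.26 ± 0.11, SE, unadjusted p = 0.0347, adjusted p = 0.384). *Gpx1* was at 291, 255 and 298 CPM in WT and 316, 279.6 and 269 CPM in KO, with KO a above the WT range and KO b and c inside it (log2 difference 0.036 ± 0.10, SE, adjusted p = 0.909). *Gpx2*, a glutathione peroxidase of epithelia, varied most among the WT libraries: it ranged over 2.66 to 9.92 CPM in WT and 7.78 to 9.04 CPM in KO (0.53 ± 0.35 on the log2 scale, SE, adjusted p = 0.638). The others were close to level: *Cat*, catalase, over 151 to 171 CPM in WT and 125 to 162 CPM in KO (-0.14 ± 0.11), mitochondrial *Sod2* over 52.9 to 58.8 CPM in WT and 56.1 to 64.8 CPM in KO (0.14 ± 0.10) and *Gpx4*, which reduces lipid peroxides in membranes, over 97.1 to 103 CPM in WT and 93.6 to 100.2 CPM in KO (-0.025 ± 0.083). *Gpx4* shares 31.7% of its 65-base stretches with other genes, mainly *Gpx4-ps2*, and *Sod2* shares 18%, so both levels are uncertain.

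*Abcc1*, the pump that exports glutathione conjugates, was the steadiest of the 42 well-counted genes. It was at 165, 177 and 177 CPM in WT and 168, 169 and 172 CPM in KO. All 6 libraries lay within a narrow band, with a spread wider than in only 1.95% of genes, and the log2 difference was -0.027 ± 0.084 (SE, adjusted p = 0.920) with a 95% interval of -0.21 to 0.16.

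The lowest and highest values often came from the same libraries. WT b was the lowest library for 16 of the 44 genes (36.4%), among them *Tiparp*, *Txnrd1*, *Srxn1*, *Prdx1*, *Tkt* and *Taldo1*, whereas it was the lowest for 28.7% of the well-counted genes. KO a was the highest for 14 of the 44 (31.8%), among them *Tiparp*, *Nfe2l2*, *Hmox1*, *Slc7a11* and *Me1*, against 22.6% of the well-counted genes. The CV within a genotype, averaged over WT and KO, had a median of 10.3% over the 42 well-counted genes and 9.93% over all 13054. Beside the 7 genes that were higher in KO without overlap, the summed upper follicle markers were also higher in each KO library than in each WT library. Most of that sum was *Krt17*, with a mean of 2078 CPM in WT and 3437 CPM in KO, and *Gata6* of the same list had a log2 difference of -0.22. Within WT the sum was highest in WT b, at 3212 CPM, the lowest library for *Tiparp*, *Txnrd1*, *Srxn1* and *Taldo1*. The markers of this list differed in that respect. In WT a, b and c, *Krt79* was at 288, 895 and 385 CPM, *Lrig1* at 131, 177 and 150, and *Gata6* at 5.09, 7.70 and 3.70. *Krt17* was at 2090, 2069 and 2076 CPM, and *Plet1*, lowest in WT b, at 94.9, 63.2 and 79.5 CPM. The part of these markers in the values of the 7 genes was not tested.

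**Figure D4:**
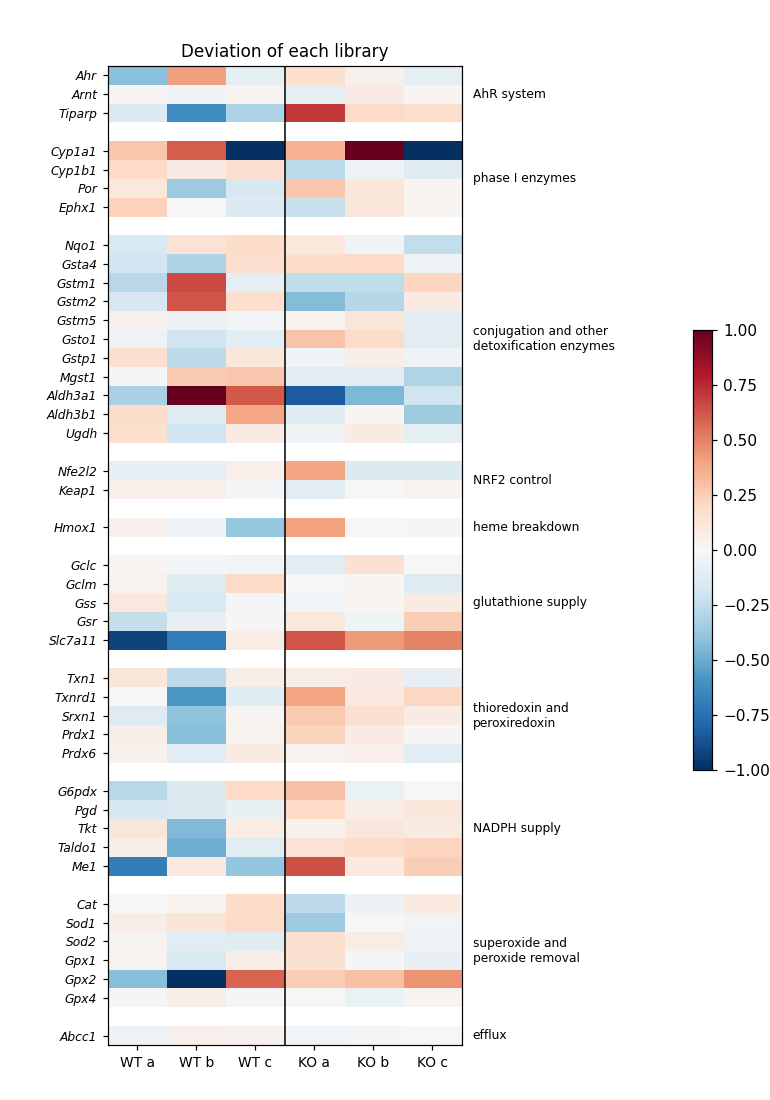
Deviation of each library from the mean of the 6 libraries, as log2(CPM + 0.5), for 43 genes by role; red is above and blue below the mean, and the colour scale ends at -1 and 1. WT b is blue for *Tiparp* and for much of the thioredoxin and NADPH groups and red for *Ahr*, *Gstm1*, *Gstm2* and *Aldh3a1*, and KO a is red for *Tiparp*, *Hmox1*, *Nfe2l2* and *Me1*.

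Further genes of both pathways, from a list of 81 of which 80 were in the table, were also tested. edgeR called 0 of the 80, and their median log2 fold change was -0.041. At an unadjusted p below 0.05 there were 6 higher and 9 lower in KO, all among the 65 of them that were well counted, or 23.1% of these against 16.5% of the 13054 genes, and this difference in shares was not tested. DESeq2 called 2 of them, *Aldh1a3* and *Abcc3*. *Aldh1a3*, which makes retinoic acid from retinal, was at 4.36, 3.71 and 3.53 CPM in WT and 8.29, 11.2 and 5.95 CPM in KO. Each KO library was above each WT library (log2 difference 1.13 ± 0.23, SE, adjusted p = 0.0559). *Abcc3*, a pump related to *Abcc1*, was at 65.6, 104 and 87.2 CPM in WT and 42.8, 63.6 and 54 CPM in KO. Here the KO libraries lay below WT, with KO b just under WT a (log2 difference -0.68 ± 0.17, SE, adjusted p = 0.105). *Ftl1*, the ferritin light chain, was at 209, 238 and 192 CPM in WT and 162, 174 and 166 CPM in KO, also without overlap (log2 difference -0.35 ± 0.10, SE, adjusted p = 0.158). The groups did not overlap for 18 of the 65 well-counted genes, 6 with KO higher and 12 with KO lower, or 27.7% against a background of 21.8%, which was not tested either.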

How the data were processed

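The authors prepared stranded mRNA libraries, aligned single reads of 65 bases with TopHat2 2.1.0 to mouse build GRCm38, and deposited uniquely mapped, strand-aware read counts per Ensembl gene, without normalization or pooling. All 6 columns were mapped by genotype. Their names carry a mouse number but no sample number, so the 3 libraries of a genotype are unnumbered replicates. Depth and the floor cover counting error only, since reads carried no molecular identifiers.

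Counts above 0 in at least 1 library (21681 genes) were tested with edgeR 4.0.16 (TMM factors 0.981 to 1.03, glmQLFit, glmQLFTest, R 4.3.3), two-sided, with Benjamini-Hochberg adjustment over all of them. The SE is the absolute log2 fold change over the square root of F. Exact permutation of 3 against 3 libraries cannot go below p = 0.1, so none is given. Well-counted genes had at least 10 counts in every library. Levels per kb used exon lengths of GENCODE M21, which held 22039 of the 22295 genes. Stretches of 65 bases shared between genes were counted in its transcripts. The script was tested on simulated counts.

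Alternatives were limma-voom (limma 3.58.1), DESeq2 1.42.0, other scalings and filters, and each library left out in turn. Values of every library are given for genes called, with an unadjusted p below 0.05 or without overlap, for the most abundant per kb in each role, for those at the floor, and for *Ahr*, *Cyp1a1*, *Nqo1*, *Nfe2l2*, *Keap1* and *Hmox1*, with the 3 smallest p of the further pathway genes. The genes and lists were chosen with earlier results of these data known. Same-group libraries differed beyond counting error (chi-square over its degrees of freedom was 10.7 or more).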

Additional observations from a re-analysis of the deposited data

How the results depend on the processing

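edgeR called 0 of the 44 genes under each other scaling and filter, limma-voom called 0, DESeq2 called 2, and leaving out 1 library gave 0 to 2 calls (2 without WT a, *Tiparp* and *Aldh3a1*). Of the further pathway genes, DESeq2 called 2 and leaving out 1 library gave 0 to 3 (3 without WT a). At an unadjusted p below 0.05, leaving out 1 library gave 7 to 15 of the 44 (16.7 to 35.7% of the 42 that were well counted) against 9.91 to 23.7% of well-counted genes. Fewer libraries overlap less often for any gene: 11 to 18 of the 44 did not overlap (26.2 to 42.9% of the 42), against 28.9 to 41.8% of well-counted genes. Calls over all genes moved far more: 24 by limma-voom with TMM factors, 28 by limma-voom with library size only, 546 by DESeq2, 15 after filterByExpr, 12 with at least 10 counts in every library, 25 among protein-coding genes, and 5 to 521 with 1 library left out (5 without WT c, 521 without WT a). The cause was not tested. The median log2 fold change of the 44 was 0.017 to 0.091 with 1 library left out. *Itga3* stayed lower in KO at -1.31 to -1.01, with an adjusted p of 0.130 without WT c and 0.0934 without KO a. Ranked by CPM without exon length, 6 of the 10 roles kept their most abundant gene, but 2 of these hold 1 gene and could not change, so 4 of the other 8 did. *Tiparp*, *Slc7a11* and *Aldh3a1*, the genes called under some setting, kept their sign in all. No paired analysis was possible because the columns carry no sample number. At 3 libraries per genotype, a 2-fold difference in a gene as variable as *Cyp1a1* was not detectable.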
